A study of Arabidopsis thaliana with 8 samples.

Results

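Whole Arabidopsis thaliana plants kept at 75 mM NaCl were compared between 3 transgenic lines and the wild type, 1 RNA library each. The transgenic lines were an empty vector line that expressed VP16 alone, the strong activation domain of a herpes simplex virus protein, and the lines T31-5 and T43-11, whose labels describe an artificial transcription factor in which a part called 3F is fused to VP16 and report tolerance of salinity in both. Col-0, the common laboratory accession, carries no transgene and was the wild type. All the transgenic lines therefore share VP16, and no untransformed plant other than Col-0 was in the comparison. A gene was placed above or below Col-0 when all 3 transgenic libraries had more, or all 3 had fewer, CPM (reads scaled to the library's total of gene reads) than the Col-0 library. Of 32678 nuclear and organelle genes counted, 24775 had a read in at least 1 of the 4 libraries; 10879 of these lay above Col-0, 6130 below it and 7766 on neither side. The same lines were also sequenced at 0 mM NaCl, which gives 8 libraries in all, and those other 4 libraries are used below as values and in 1 alternative fit. None of the sources used here gives the promoter behind the transgenes, the number of insertions or clones, the age of the plants, the length of the salt treatment or the number of plants per library.

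The empty vector, T31-5 and T43-11 libraries held 21791327, 22820814 and 21159862 gene reads, against 13007480 in the Col-0 library, so that Col-0 had 61.5% of the reads of the shallowest transgenic library. A count of 0 allows up to 3 reads, or 0.231 CPM in Col-0, counting error only. The count tables held added rows named T31 and T43, which no source used here defines. The T31 row had 68 reads in the empty vector library, 67 in the library labelled T31-5 and 587 in T43-11, against 0 reads in Col-0. The T43 row had 0, 1 and 711 reads in the same transgenic libraries, against 0 reads in Col-0. The library labelled T31-5 thus did not stand above the empty vector library in the row that carries its name, while Col-0 had no read in either row. The T43-11 library of 0 mM NaCl also stood apart: it differed from the 75 mM library of its own line by a mean chi-square of 1.42 per gene with 0 genes 2-fold apart, where the 0 mM and 75 mM libraries of the empty vector line differed by 50.5 with 508 genes 2-fold apart. At 0 mM the empty vector and T31-5 libraries differed by 1.44 per gene, close to counting noise, so they are given as 2 values and not as 2 independent plants.

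Several groups of genes described below belong to well-known pathways. When oxygen is short, plant cells turn from respiration to fermentation: pyruvate decarboxylase and alcohol dehydrogenase turn pyruvate into ethanol, sucrose synthases open sucrose without spending as much energy as invertase, and haemoglobin scavenges nitric oxide. The response is set off by ethylene response factors of group VII, which plant cysteine oxidases mark for destruction while oxygen is present, and it is best known from flooded roots. Salt itself acts on roots first, where sodium enters, and abscisic acid carries much of the response to the loss of water.

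Among the gene lists, fermentation had the highest median difference, and the 250 bases before the start of 4 of its genes are printed because these genes were higher together. They are taken from the RefSeq annotation of TAIR10.1, each 5′ to 3′ on the strand of its gene. Capitals mark AAACCA or its reverse complement TGGTTT, known as the GT motif of the ADH1 promoter, and CACGTG, the G-box.

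ADH1, chr1:28975005-28975254, plus strand: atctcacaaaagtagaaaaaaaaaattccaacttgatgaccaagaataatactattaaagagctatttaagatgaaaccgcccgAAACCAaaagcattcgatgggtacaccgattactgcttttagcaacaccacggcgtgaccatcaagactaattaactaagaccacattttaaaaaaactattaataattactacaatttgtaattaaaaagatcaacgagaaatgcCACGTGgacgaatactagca

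PDC1, chr4:15954804-15955053, minus strand: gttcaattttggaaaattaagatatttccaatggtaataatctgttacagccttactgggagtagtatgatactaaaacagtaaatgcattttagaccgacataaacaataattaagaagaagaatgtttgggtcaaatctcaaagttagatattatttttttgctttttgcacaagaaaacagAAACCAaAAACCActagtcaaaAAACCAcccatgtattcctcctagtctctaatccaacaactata

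SUS4, chr3:15184106-15184355, minus strand: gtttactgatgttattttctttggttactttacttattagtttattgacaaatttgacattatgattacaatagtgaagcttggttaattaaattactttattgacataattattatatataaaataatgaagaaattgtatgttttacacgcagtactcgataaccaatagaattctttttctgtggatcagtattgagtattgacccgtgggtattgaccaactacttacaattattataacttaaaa

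HB1, chr2:6983778-6984027, minus strand: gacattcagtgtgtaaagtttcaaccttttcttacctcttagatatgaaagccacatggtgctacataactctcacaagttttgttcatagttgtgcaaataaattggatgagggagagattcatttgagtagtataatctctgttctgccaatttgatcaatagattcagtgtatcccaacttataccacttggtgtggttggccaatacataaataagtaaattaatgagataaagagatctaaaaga

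The PDC1 window held AAACCA at 3 places, all near the gene start, and the ADH1 window held 1 AAACCA and 1 CACGTG. The SUS4 and HB1 windows held neither. Over both strands, AAACCA was found in 3 of the 11 genes of the list (ADH1, PDC1 and SUS1) and in 27.3% of 26711 promoters of the same length, and CACGTG in 2 of the 11 (ADH1 and LBD41) and in 6.58% of all. ACGTG, which every CACGTG also contains, was in 2 of the 11 and in 23.1% of all.

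At 75 mM NaCl 1126 genes were higher and 1176 were lower in the transgenic lines than in Col-0, among 20693 tested (edgeR quasi-likelihood test, adjusted p at or under 0.05), which is 5.44% higher and 5.68% lower. The lines served as the replicates (3 libraries against 1, with 2 residual degrees of freedom), and the Col-0 library, which has no replicate, was assumed to vary like them. Of the tested genes 48.5% lay above Col-0 in all 3 lines and 25.5% below it, and with TMM factors, which shifted the lines by 0.078 on the log2 scale against Col-0, the shares were 37.3% above and 36.2% below. The balance of sides across all genes therefore rested on the scaling. Without T43-11 the test called 582 higher and 467 lower. In a fit over all 8 libraries, with lines as replicates at both salt levels, it called 2 higher (FTM1 and AT2G39850) and 1 lower (AT3G01345), and no other gene passed in it. The biological coefficient of variation was 14.89% in that fit, beside 7.01% over the 75 mM libraries alone.

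**Figure D1:**
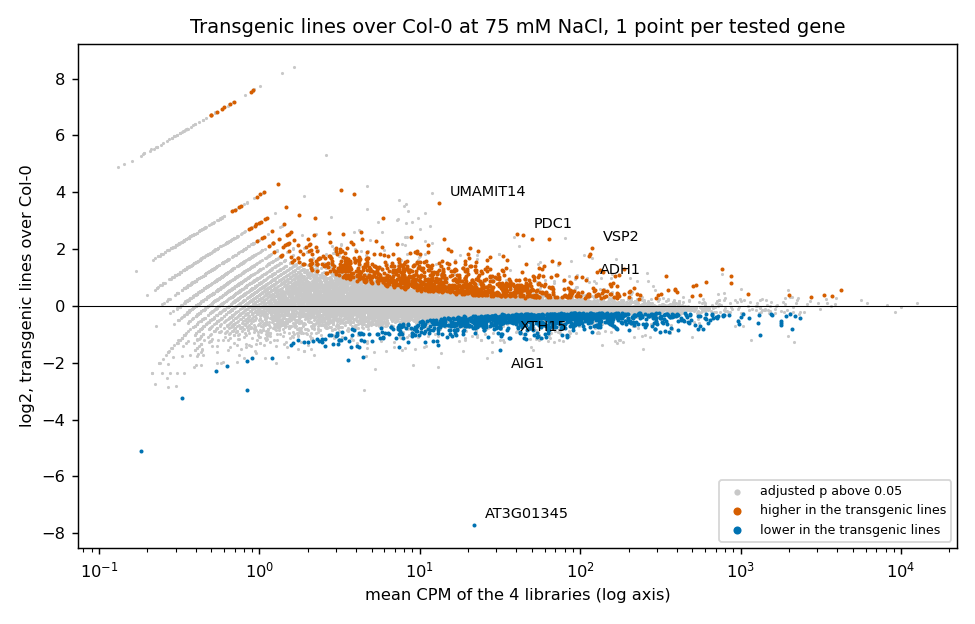
Mean CPM of the 4 libraries of 75 mM NaCl (log axis) against the fitted log2 ratio of the 3 transgenic lines over Col-0, 1 point per tested gene. The 1126 genes called higher and the 1176 called lower lie on both sides of 0, AT3G01345 lies alone far below, and the slanted rows of points at low CPM are genes with few or no reads in Col-0, whose fitted ratios depend on the prior count.

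Large differences ran mostly one way. The 12233 genes that averaged 10 CPM or more over the 4 libraries lay above Col-0 in 43.8% of cases and below it in 30.7%, or 28.8% and 45.5% with TMM factors. Of them, 127 exceeded Col-0 2-fold or more in every transgenic line (1.04%) and 7 were 2-fold or more under it in every one (0.0572%), counted on log2(CPM + 0.5), which understates the change of low genes. Of the 127, 103 passed the edgeR test, which used the same libraries, and of the 7, 2 passed (AT3G01345 and AIG1). The other 5 genes at least 2-fold lower were AT3G44970, AT1G52100, AT1G13609, XTH33 and EXO. At the edge of the higher set, AT4G38860 stood just inside with 32.0, 43.7 and 40.1 CPM in the empty vector line, T31-5 and T43-11, against 15.8 CPM in Col-0. AT2G43590 stood just outside with 20.7, 56.5 and 37.2 CPM in the same lines, against 10.1 CPM in Col-0. Without the empty vector library, 66 genes in place of 7 were at least 2-fold lower and 179 in place of 127 at least 2-fold higher. With TMM factors and all 3 lines, 11 were at least 2-fold lower and 103 at least 2-fold higher.

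Transcripts of sucrose breakdown and fermentation genes were higher in all the transgenic lines. All 11 listed genes lay above Col-0 in the 3 lines, 9 passed the test, and the median difference of the list was 1.35 on the log2 scale, beside 0.08 over all tested genes. Of those tested genes, 48.5% lay above Col-0 (37.3% with TMM factors) and 5.44% were called higher. The lists and their members were chosen with earlier results of these data known. The counts of this list and of those below are therefore descriptions and not independent support. Alcohol dehydrogenase ADH1, the last step to ethanol, had 128, 145 and 143 CPM in the empty vector line, T31-5 and T43-11, against 38.9 CPM in Col-0. The pyruvate decarboxylase PDC1, which starts ethanol fermentation, had 53.6, 61.5 and 51.6 CPM in the lines, against 9.38 CPM in Col-0. Both stood well clear of Col-0 in each line, and the log2 ratios were 1.75 ± 0.10 for ADH1 and 2.49 ± 0.14 for PDC1 (SE, edgeR adjusted p = 0.000127 for each).

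The sucrose synthase SUS4 had 76.7, 89.3 and 73.0 CPM in the empty vector line, T31-5 and T43-11, against 14.7 CPM in Col-0, a log2 ratio of 2.36 ± 0.14 (SE, edgeR adjusted p = 0.000205). Its close relative SUS1 had 146, 157 and 143 CPM in the lines, against 61.7 CPM in Col-0, with a log2 ratio of 1.19 ± 0.08 and the same adjusted p in edgeR. Haemoglobin HB1 had 54.9, 70.6 and 64.1 CPM in the lines, against 11.8 CPM in Col-0 (log2 ratio 2.35 ± 0.18, SE, edgeR adjusted p = 0.00173). For each of these genes the lowest transgenic library was at least 2-fold above Col-0. The copies SUS1 and SUS4 are alike in sequence, and no source used here says how reads that fit both were counted.

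Genes that sense oxygen or limit the response were higher as well. The plant cysteine oxidase PCO2 had between 17.0 and 21.4 CPM in the empty vector line, T31-5 and T43-11, against 4.38 CPM in Col-0, and PCO1 had 19.1, 20.6 and 19.8 CPM in these lines, against 10.3 CPM in Col-0. HRA1, which restrains group VII factors, had 9.73, 11.8 and 8.22 CPM, against 3.54 CPM in Col-0. LBD41, a LOB domain factor, had 27.5, 30.7 and 26.7 CPM, against 12.1 CPM in Col-0. The log2 ratios in edgeR were 2.01 for PCO2, 0.87 for PCO1, 1.41 for HRA1 and 1.15 for LBD41, and these 4 passed. The group VII factors HRE1 and HRE2 lay above Col-0 without passing: HRE1 had 9.45, 11.8 and 10.2 CPM in the lines, against 7.0 CPM in Col-0 (edgeR adjusted p = 0.105), and HRE2 had 0.826, 1.05 and 0.851 CPM, against 0.231 CPM in Col-0 (edgeR adjusted p = 0.116).

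The ACC oxidase ACO1, which makes ethylene and is not on the list, was among the 12 genes with the widest gap above Col-0, with 23.8, 30.3 and 22.0 CPM in the empty vector line, T31-5 and T43-11, against 5.84 CPM in Col-0 (log2 ratio 2.04 ± 0.25, SE, edgeR adjusted p = 0.00756). The 9 calls of the list were made under every alternative except the fit over all 8 libraries, which made 0 of them, although all 11 genes had an unadjusted p under 0.05 in it. Summed over the list, the lines had 543, 621 and 558 CPM, against 174 CPM in Col-0. At 0 mM NaCl the libraries of the empty vector line and of T31-5 had 279 and 280 CPM and T43-11 had 552 CPM, against 141 CPM in Col-0, so that the lines were above Col-0 without salt too.

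**Figure D2:**
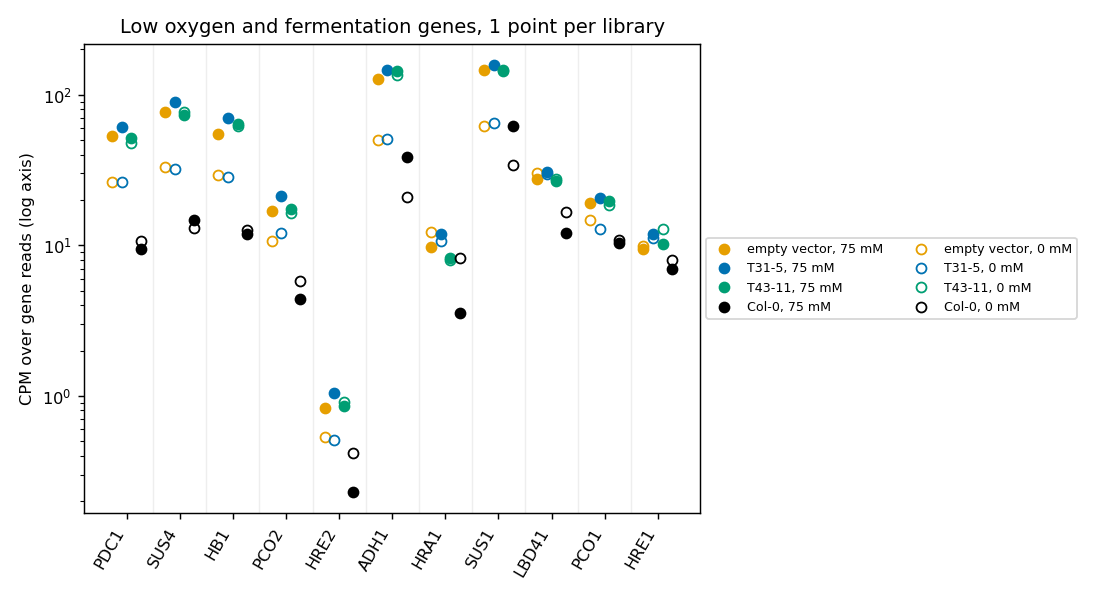
CPM (log axis) of the 11 low oxygen genes, 1 point per library, with the empty vector line, T31-5 and T43-11 left of Col-0 within each gene, filled at 75 mM NaCl and open at 0 mM NaCl. At 75 mM each transgenic point lies above Col-0, as for PDC1 with 51.6 to 61.5 CPM in the lines against 9.38 CPM in Col-0; the open T43-11 points sit with its filled ones.

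Most root markers lay above Col-0, though few passed. Of 15 root markers, 12 lay above Col-0, 1 below and 2 on neither side, 3 passed the edgeR test, and the list median was 0.84 on the log2 scale, beside 0.08 over all tested genes. Of those tested genes, 48.5% lay above Col-0 (37.3% with TMM factors) and 5.44% were called higher. CASP1, a scaffold of the Casparian strip, the seal of the root endodermis, had 9.82, 13.5 and 13.7 CPM in the empty vector line, T31-5 and T43-11, against 3.31 CPM in Col-0 (log2 ratio 1.82 ± 0.28, SE, edgeR adjusted p = 0.00765). MYB36, the factor that switches on the Casparian strip genes, had 3.58, 4.08 and 4.40 CPM, against 1.61 CPM in Col-0 (log2 ratio 1.23, edgeR adjusted p = 0.0274). PYK10, an abundant root beta-glucosidase, had 1980, 2350 and 2110 CPM, against 1540 CPM in Col-0 (log2 ratio 0.40, edgeR adjusted p = 0.0293).

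The root hair genes spread more between the lines. EXPA18, a root hair expansin, had 1.88, 4.03 and 4.40 CPM in the empty vector line, T31-5 and T43-11, against 1 read or 0.0769 CPM in Col-0 (exact 95% Poisson interval 0.00195 to 0.428 CPM, counting error only), and did not pass (edgeR adjusted p = 0.0549). LRX1, a wall protein of root hairs, had 3.40, 9.42 and 8.18 CPM, against 0.846 CPM in Col-0 (edgeR adjusted p = 0.256). SCR, a factor of the root endodermis, went the other way with 39.9, 41.3 and 38.3 CPM in the lines, against 45.8 CPM in Col-0 (edgeR adjusted p = 0.0567). Across alternatives the test called 1 to 8 of the 15 markers, apart from the fit over all 8 libraries. Without T43-11 it called 1, and PYK10 and MYB36 then had edgeR adjusted p of 0.0848 to 0.104. Without T31-5, PYK10 had an edgeR adjusted p of 0.0568.

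The root markers summed to 2060, 2450 and 2220 CPM in the empty vector line, T31-5 and T43-11, against 1600 CPM in Col-0, most of it PYK10. The other 14 markers summed to 80.8, 101 and 102 CPM in the lines, against 65.2 CPM in Col-0, most of it SCR. At 0 mM these 14 summed to 75.7, 73.4 and 101 CPM in the lines, against 76.8 CPM in Col-0. All 15 then summed to 1290, 1220 and 2200 CPM, against 1230 CPM in Col-0. The T43-11 library at 0 mM resembled its 75 mM one. A larger share of root in the harvested plants and more of these transcripts per root cell cannot be told apart in RNA of whole plants, and their part in the higher fermentation genes was not tested. Of 26 nuclear photosynthesis genes, which mark leaves, 22 lay above Col-0 and 2 below (20 and 4 with TMM factors), with a median difference of 0.26 on the log2 scale and sums of 93600, 97900 and 100000 CPM in the lines, against 86400 CPM in Col-0. Among all tested genes 48.5% lay above Col-0, or 37.3% with TMM factors. Of the flower markers, AP1, AP3, AG and LFY stayed under 0.1 CPM in all 4 libraries, while PI had 8.26, 2.59 and 5.29 CPM in the lines, against 14.8 CPM in Col-0, without passing (edgeR adjusted p = 0.323). SEP3 had 0.642, 0.438 and 0.803 CPM, against 1.54 CPM in Col-0 (edgeR adjusted p = 0.106). The seed storage and pollen markers were at or near 0 in all libraries.

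**Figure D3:**
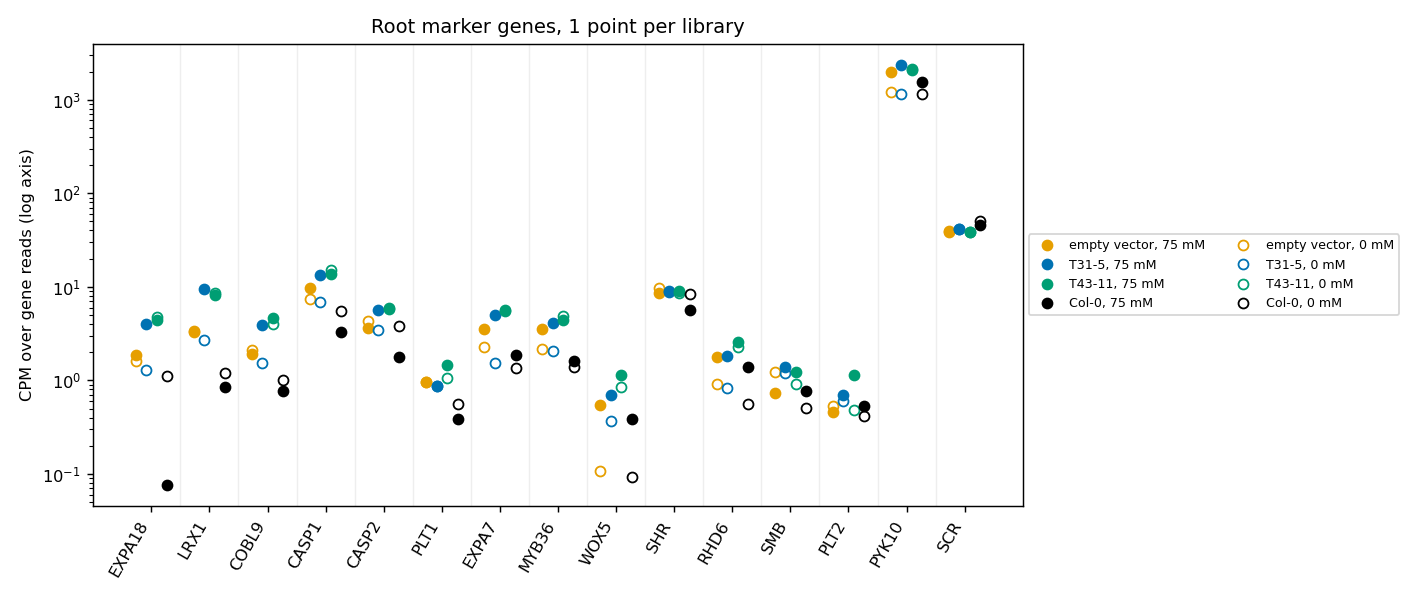
CPM (log axis) of the 15 root markers, 1 point per library, with the empty vector line, T31-5 and T43-11 left of Col-0 within each gene, filled at 75 mM NaCl and open at 0 mM NaCl. In 12 of the 15 markers all 3 filled transgenic points lie above the filled Col-0 point, and in SCR they lie below it.

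Genes of dividing cells lay above Col-0 as well. All 8 cell division genes lay above Col-0, with a median of 0.50 on the log2 scale, where 48.5% of all tested genes lay above it and 5.44% were called higher. The cyclin-dependent kinases CDKB1;1 and CDKB2;1, which act at the entry to mitosis, passed in edgeR, while DESeq2 called 0 of the 8. CDKB2;1 had 12.5, 12 and 13.2 CPM in the empty vector line, T31-5 and T43-11, against 7.23 CPM in Col-0 (log2 ratio 0.72 ± 0.15, SE, edgeR adjusted p = 0.0178). CDKB1;1 had 5.55, 4.86 and 5.01 CPM, against 2.69 CPM in Col-0 (edgeR adjusted p = 0.0489). Without T43-11 neither passed (edgeR adjusted p 0.0581 to 0.113), and CDKB1;1 also missed without the empty vector library (edgeR adjusted p = 0.0686) and without T31-5 (0.0593).

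The other genes with the widest gaps above Col-0 included a transporter and a storage protein. UMAMIT14, a member of a family of amino acid exporters, had the widest, with 20.4, 15.1 and 15.7 CPM in the empty vector line, T31-5 and T43-11, against 1.31 CPM in Col-0 (log2 ratio 3.62 ± 0.33, SE, edgeR adjusted p = 0.00195). VSP2, a vegetative storage protein induced by jasmonate, had 143, 134 and 163 CPM, against 34.0 CPM in Col-0 (log2 ratio 2.03 ± 0.15, edgeR adjusted p = 0.0012), and its close copy VSP1 had 32.6, 26.1 and 34.2 CPM, against 12.5 CPM in Col-0 (log2 ratio 1.23, edgeR adjusted p = 0.0200). The desaturase FTM1 had 49.1, 59.6 and 45.1 CPM, against 8.38 CPM in Col-0 (log2 ratio 2.53, edgeR adjusted p = 0.00296). AT2G39850, a subtilisin-like protease, had 27, 29.4 and 28.8 CPM, against 7.07 CPM in Col-0, and AT2G28780, annotated as an efflux pump subunit, had 18.8, 17.9 and 16.8 CPM, against 3.31 CPM in Col-0; both passed in edgeR (adjusted p = 0.000204 and 0.000205). EXT10, an extensin of the cell wall, and the peroxidase AT1G30870 had wide gaps but spread between the lines and did not pass: EXT10 had 7.80, 20.9 and 18.0 CPM, against 0.923 CPM in Col-0 (edgeR adjusted p = 0.249), and AT1G30870 had 8.31, 14.4 and 15.5 CPM, against 1.85 CPM in Col-0 (edgeR adjusted p = 0.106).

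A further set was close to absent in Col-0: 19 genes had at most 3 reads there and at least 1 CPM in each transgenic line, and 0 genes showed the converse. They were chosen for these values, so they are given as a description, and the edgeR test on the same libraries adds no support. AT3G29970, which encodes a B12D protein, had 4.50, 3.99 and 4.11 CPM in the empty vector line, T31-5 and T43-11, against 3 reads or 0.231 CPM in Col-0 (exact 95% Poisson interval 0.0476 to 0.674 CPM). LSH7, AT5G47980 (an acyltransferase) and AT5G49780 (a receptor-like kinase) had 1.42 to 2.48 CPM across the lines, against 0.154 to 0.231 CPM in Col-0. Since Col-0 had fewer reads in all, the lack of a converse set is counted on unequal depths.

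One gene was nearly silent in the transgenic lines. AT3G01345, an uncharacterized protein on chromosome 3, had 18, 7 and 3 reads in the empty vector line, T31-5 and T43-11 (0.826, 0.307 and 0.142 CPM), against 1119 reads or 86.0 CPM in Col-0, a log2 ratio of -7.72 ± 0.30 (SE, edgeR adjusted p = 0.000977). Without salt the lines had 0.428, 0.092 and 0.375 CPM, against 137 CPM in Col-0, a low level in all 6 transgenic libraries. These are not 6 independent observations. The empty vector and T31-5 libraries at 0 mM were hardly apart, and T43-11 at 0 mM resembled its 75 mM library. The nearest line at 75 mM was 65.3-fold under Col-0 on CPM + 0.5. Of its 6 nearest annotated neighbours, AT3G01325 had 1 read in T31-5 and 0 reads in the other lines and in Col-0 at 75 mM. The other 5 had reads in the lines: DEL3, AT3G01350 and AT3G01360 lay above Col-0 without passing in edgeR (DEL3, for example, had 3.07, 2.41 and 3.45 CPM in the lines, against 1.61 CPM in Col-0), AT3G01340 had 61.6, 60.2 and 62.0 CPM in the lines at 75 mM, against 60.1 CPM in Col-0, and CFM2 had 138, 137 and 134 CPM, against 142 CPM in Col-0. The empty vector line shared the low level.

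Of the other 11 genes with the widest gaps below Col-0, 4 passed. AIG1, a GTP-binding protein of the answer to avirulent bacteria, had 23.9, 18.1 and 23 CPM in the empty vector line, T31-5 and T43-11, against 60.7 CPM in Col-0 (log2 ratio -1.57 ± 0.15, SE, edgeR adjusted p = 0.00382). The xyloglucan endotransglucosylases XTH15 and XTH18, which cut and rejoin wall polymers, had 28.8, 29.8 and 26.0 CPM, against 58.8 CPM in Col-0, for XTH15 and 49.6, 41.0 and 44.2 CPM, against 93.8 CPM in Col-0, for XTH18 (edgeR adjusted p = 0.000379 and 0.0011). AT1G77640, an AP2 domain protein, had 11.6, 8.06 and 8.79 CPM, against 23.3 CPM in Col-0 (edgeR adjusted p = 0.00685), and did not pass without T43-11 (0.0608). EXO, SLAH3, XTH33, WRKY18, AT3G44970, AT1G52100 and AT1G13609 had all 3 lines 1.91-fold or more below Col-0 on CPM + 0.5 and did not pass, with edgeR adjusted p of 0.0596 to 0.302; EXO, for example, had 215, 152 and 153 CPM, against 466 CPM in Col-0.

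**Figure D4:**
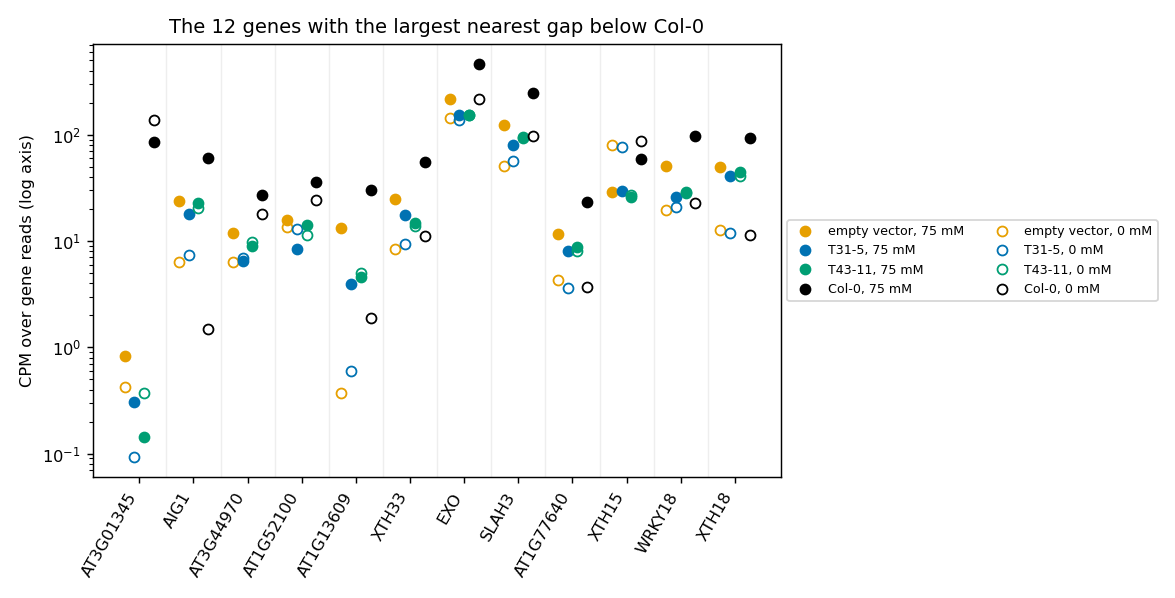
CPM (log axis) of the 12 genes with the widest gap below Col-0, 1 point per library, with the empty vector line, T31-5 and T43-11 left of Col-0 within each gene, filled at 75 mM NaCl and open at 0 mM NaCl. AT3G01345 alone is far lower in the lines at both salt levels, while for AIG1 the open transgenic points, 6.37, 7.41 and 20.3 CPM, lie above the open Col-0 point of 1.48 CPM.

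Several touch and quick stress genes were lower in the lines. Of 12 such genes, 9 lay below Col-0 and 3 above, 6 passed, all lower, and the median was -0.48 on the log2 scale. Over all tested genes 25.5% lay below Col-0 (36.2% with TMM factors, which left 9 of the 12 below) and 5.68% were called lower. DESeq2 called 3 of the 12 lower, and edgeR without T43-11 called 4. TCH4, a touch-induced xyloglucan enzyme, had 301, 276 and 275 CPM in the empty vector line, T31-5 and T43-11, against 495 CPM in Col-0 (log2 ratio -0.88 ± 0.08, SE, edgeR adjusted p = 0.000561). TCH3, a calmodulin-like protein, had 160, 139 and 137 CPM, against 241 CPM in Col-0 (log2 ratio -0.81, edgeR adjusted p = 0.00244). ZAT12, a zinc finger factor of many stresses, had 6.88, 5.30 and 6.66 CPM, against 11.5 CPM in Col-0, and ERF6, an ethylene response factor, had 9.13, 9.33 and 9.36 CPM, against 14.3 CPM in Col-0 (edgeR adjusted p = 0.0129 and 0.011). TCH2 and WRKY40 passed as well, but not without T43-11 (edgeR adjusted p 0.109 to 0.124), and WRKY40 not without T31-5 (0.0833). At 0 mM the list summed to 672, 653 and 536 CPM in the lines, against 382 CPM in Col-0, the opposite order to 75 mM.

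Some heat shock, senescence and sugar starvation genes were lower, and none of these lists had a gene that passed higher. Beside the counts below, 25.5% of all tested genes lay below Col-0 (36.2% with TMM factors) and 5.68% were called lower. Of 14 heat shock genes 10 lay below Col-0 and 4 passed lower: HSP70, HSP90.1 and the heat shock factors HSFA2 and HSFA7A; HSP70 had 40.0, 40.6 and 34.1 CPM in the empty vector line, T31-5 and T43-11, against 54.0 CPM in Col-0 (edgeR adjusted p = 0.0086). Without T43-11, HSP90.1 and HSFA2 did not pass (edgeR adjusted p 0.0848 to 0.0963), nor did HSP90.1 without T31-5 (0.0965). Of 9 senescence genes 7 lay below and 4 passed lower, among them the chlorophyll breakdown enzymes PAO and NYE1; PAO had 124, 118 and 127 CPM, against 170 CPM in Col-0 (log2 ratio -0.54 ± 0.08, SE, edgeR adjusted p = 0.00377), while NYE1 and WRKY6 did not pass without T43-11 (edgeR adjusted p 0.106 to 0.115), nor NYE1 without T31-5 (0.0614). SAG21 passed as well. Of 8 sugar starvation genes 7 lay below and 3 passed: DIN10, a raffinose synthase-like protein that darkness induces, had 1710, 1420 and 1650 CPM, against 2410 CPM in Col-0 (log2 ratio -0.68, edgeR adjusted p = 0.00798), and BT2 and KMD4 were the others, KMD4 not passing without T43-11 (edgeR adjusted p = 0.077) or without T31-5 (0.0553).

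Genes of hormones and defence went in both directions. Of the jasmonate list, VSP1 and VSP2 were higher, whereas TAT3, a tyrosine aminotransferase, had 11.3, 8.54 and 8.08 CPM in the empty vector line, T31-5 and T43-11, against 20.5 CPM in Col-0 (log2 ratio -1.22, edgeR adjusted p = 0.00737), and the jasmonate repressors JAZ7 and JAZ9 were lower, though not without T43-11 (edgeR adjusted p 0.058 to 0.1). In all, 14 of 22 tested jasmonate genes lay below Col-0 and 3 above. The shares over all tested genes were 25.5% below and 48.5% above (36.2% and 37.3% with TMM factors), with 5.68% called lower and 5.44% called higher. The salicylic acid list had 7 genes above Col-0 and 9 below, with a median of -0.05 on the log2 scale. Of 24 salicylic acid genes 2 passed, AIG1 and SARD1, a factor of salicylic acid synthesis, which had 5.92, 4.91 and 6.14 CPM, against 11.6 CPM in Col-0 (edgeR adjusted p = 0.0064). CYP81F2 of indole glucosinolates had 14.6, 10.4 and 9.92 CPM, against 23.8 CPM in Col-0 (edgeR adjusted p = 0.0354), and missed without T43-11 (0.101) and without T31-5 (0.0533). Of the aliphatic glucosinolates MAM1 and MYB28 passed higher, MAM1 not without T43-11 (edgeR adjusted p = 0.138).

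Of 5 genes best known from salt stress, 0 passed in edgeR and 0 in DESeq2; SOS1 and NHX1, 2 of the 5, had an unadjusted p under 0.05 in edgeR. The stress gene RD29A had 41.3, 35.6 and 54.7 CPM in the empty vector line, T31-5 and T43-11, against 34.4 CPM in Col-0, and the proline synthesis enzyme P5CS1 had 699, 702 and 837 CPM, against 623 CPM in Col-0. The sodium exporter SOS1 had 33.8, 38.2 and 34.7 CPM, against 39.9 CPM in Col-0, and the vacuolar exchanger NHX1 had 76.0, 82.2 and 78.9 CPM, against 84.6 CPM in Col-0. The sodium transporter HKT1 had 2.98, 3.77 and 2.74 CPM, against 2.0 CPM in Col-0. Their edgeR adjusted p ran from 0.127 to 0.695, which does not show that they were equal.

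Of 26 abscisic acid genes 4 passed, all higher: the dehydrin LTI30, the phosphatase ABI1, the factor ABF3 and the abscisic acid hydroxylase CYP707A3. The list had 14 genes above Col-0 and 6 below, where 48.5% of all tested genes lay above and 25.5% below. Over all tested genes, 5.44% were called higher and 5.68% lower. LTI30 had 33.2, 32.2 and 39.7 CPM in the empty vector line, T31-5 and T43-11, against 16.8 CPM in Col-0 (log2 ratio 0.98 ± 0.16, SE, edgeR adjusted p = 0.0104). Without T43-11, ABI1, ABF3 and CYP707A3 did not pass (edgeR adjusted p 0.0643 to 0.113), and ABF3 did not without the empty vector library (0.0684). Of 10 tested cold-induced genes COR15A, COR15B and KIN2 were higher and the beta-amylase BAM3 lower. COR15A had 37.5, 38.3 and 45.5 CPM, against 11.4 CPM in Col-0 (log2 ratio 1.75 ± 0.16, SE, edgeR adjusted p = 0.00175). COR15B did not pass without T31-5 (edgeR adjusted p = 0.0713).

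Ion, water and nutrient transport changed gene by gene. Among all tested genes 5.44% were called higher and 5.68% lower. Of 24 transport genes, the exchanger NHX4, the potassium transporter HAK5 and the proton pump HA2 were higher and the nitrate and chloride exchanger CLC-A lower. HA2 had 494, 638 and 551 CPM in the empty vector line, T31-5 and T43-11, against 327 CPM in Col-0 (log2 ratio 0.70 ± 0.14, SE, edgeR adjusted p = 0.0289). HAK5 had 2.66, 3.16 and 3.02 CPM, against 0.999 CPM in Col-0. Without T43-11, HAK5, HA2 and CLC-A did not pass (edgeR adjusted p 0.0775 to 0.102). Of 19 aquaporins PIP2;4 was higher, with 4.54, 6.0 and 5.77 CPM, against 1.85 CPM in Col-0 (edgeR adjusted p = 0.0131), and PIP2;1, PIP2;3, TIP1;1 and TIP1;2 were lower, PIP2;1 and TIP1;2 not without T31-5 (edgeR adjusted p 0.0714 to 0.0776) or without T43-11 (0.0773 to 0.0951).

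Both nitrate reductases were lower in the lines, while 3 other genes of nitrate assimilation were higher. Of 9 tested nitrate genes 6 lay above Col-0 and 2 below, and 4 did not pass. Of 14 tested phosphate genes 3 lay above and 8 below, with 3 passing higher and 4 lower. Over all tested genes 48.5% lay above Col-0 and 25.5% below (37.3% and 36.2% with TMM factors). Of all tested genes 5.44% were called higher and 5.68% lower. Nitrate reductase NIA2 had 1980, 1600 and 1840 CPM in the empty vector line, T31-5 and T43-11, against 2990 CPM in Col-0 (log2 ratio -0.81 ± 0.11, SE, edgeR adjusted p = 0.00659), and NIA1 had 137, 135 and 132 CPM, against 187 CPM in Col-0 (edgeR adjusted p = 0.00257). The root ferredoxin reductase RFNR2 had 46.7, 52.5 and 52.4 CPM, against 20.7 CPM in Col-0 (log2 ratio 1.21 ± 0.11, SE, edgeR adjusted p = 0.000661). G6PD3, which makes NADPH in plastids, and UPM1 of sirohaem synthesis were higher as well, UPM1 not without T43-11 (edgeR adjusted p = 0.0745). PHO1, which loads phosphate into xylem, had 90.0, 100 and 82.4 CPM, against 46.1 CPM in Col-0 (log2 ratio 0.90, edgeR adjusted p = 0.0033). Of the other phosphate genes PHT1;1 and PHT1;2 passed higher and SPX1, SQD1, SQD2 and PAP17 lower, none of these 6 without T43-11 (edgeR adjusted p 0.0581 to 0.154). PHT1;1 and SQD2 also missed without T31-5 (0.0779 to 0.0834), and SQD2 without the empty vector library (0.0745), in edgeR's adjusted p.

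Of 22 tested iron genes 12 lay below Col-0 and 4 above, where 25.5% of all tested genes lay below and 48.5% above. With TMM factors those shares were 36.2% and 37.3%, and 5.68% of all were called lower and 5.44% higher. The root factor FIT and the coumarin exporter ABCG37 were higher, and the factors PYE and BHLH101 lower. ABCG37 had 209, 207 and 192 CPM in the empty vector line, T31-5 and T43-11, against 143 CPM in Col-0 (log2 ratio 0.43 ± 0.08, SE, edgeR adjusted p = 0.00925). Without T43-11, FIT, PYE and BHLH101 did not pass (edgeR adjusted p 0.0778 to 0.197), nor did FIT without the empty vector library (0.07) or without T31-5 (0.0557). The anthocyanin enzyme DFR had 28.1, 24.1 and 25.4 CPM, against 10.2 CPM in Col-0 (log2 ratio 1.26 ± 0.14, SE, edgeR adjusted p = 0.00154). AT4G14090 of the flavonoid list was higher as well, but not without T43-11 (edgeR adjusted p = 0.0678). The catalase CAT2 had 1700, 1550 and 1570 CPM, against 2300 CPM in Col-0 (log2 ratio -0.59, edgeR adjusted p = 0.00339). PORB of chlorophyll synthesis had 536, 576 and 661 CPM, against 333 CPM in Col-0 (edgeR adjusted p = 0.0143), and LHCB3, LHCA1 and PSBQ-2 were the other photosynthesis genes to pass, all higher and none without T43-11 (edgeR adjusted p 0.0873 to 0.149), nor LHCB3 and LHCA1 without T31-5 (0.0833 to 0.102). Of the clock PRR9 and GI were higher. In the flowering and reference lists 0 genes passed in edgeR, with 2 in each at an unadjusted p under 0.05, and DESeq2 called 0 flowering genes and 1 reference gene. Of the 9 reference genes 4 lay below Col-0 and 1 above, or 7 below and 1 above with TMM factors. The reference gene UBQ10 had 2290, 2160 and 2270 CPM, against 2560 CPM in Col-0 (edgeR adjusted p = 0.053). Its log2 ratio was -0.29 to -0.24 across alternatives, about the size of some genes called lower, such as KMD4 (-0.32 to -0.28).

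**Figure D5:**
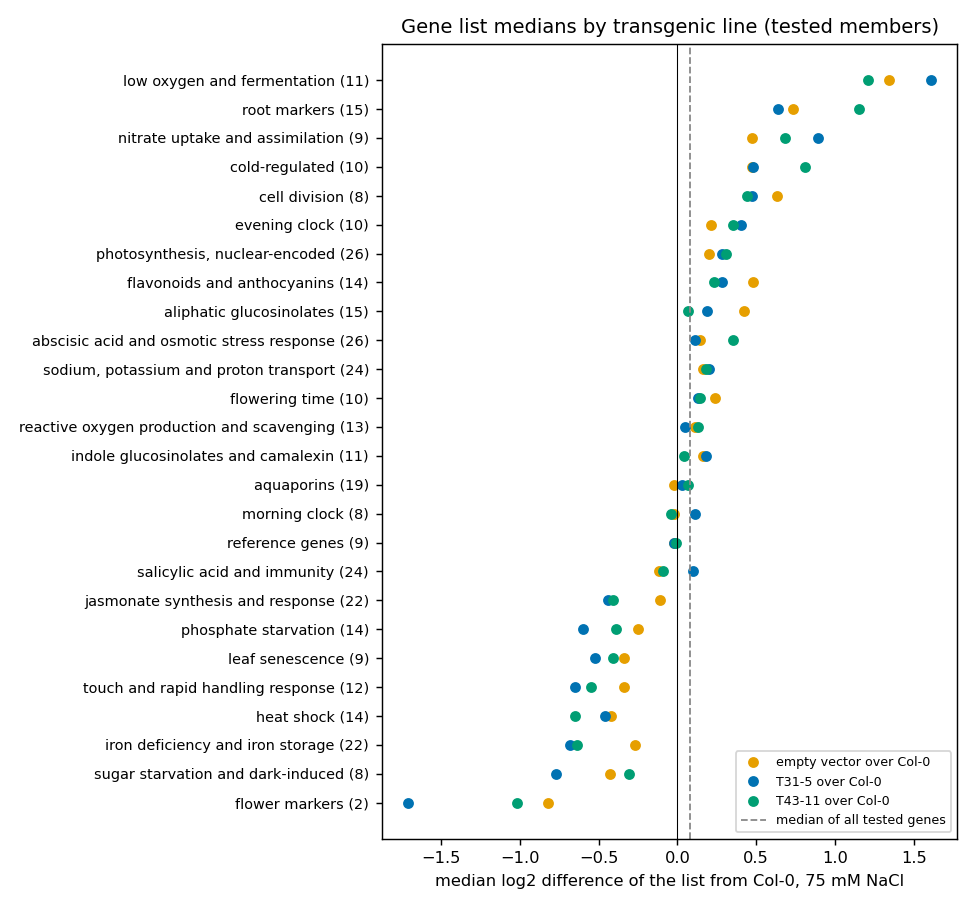
Median log2 difference from Col-0 at 75 mM NaCl over the tested members of each gene list (number in brackets), 1 point per transgenic line, with the dashed line at the median of all tested genes. The low oxygen list stands highest at 1.35 over the lines and the root markers follow at 0.84, while the sugar starvation, iron, heat shock and touch lists lie at -0.52 to -0.48; the flower list has 2 tested genes.

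The 0 mM libraries, which took no part in choosing the 2-fold genes, mostly had the same sides. Of the 127 genes at least 2-fold higher at 75 mM, 117 (92.1%) were above Col-0 in both of the 0 mM libraries of T31-5 and the empty vector line, where 54.8% of the 12233 genes were; 4 were below in both and 6 were split. The genes were chosen on their 75 mM values, and their differences at 0 mM were smaller, with medians over the 127 genes of 0.51 and 0.52 on the log2 scale for those 2 lines, beside 1.34 and 1.51 in the same lines at 75 mM. Of the 127, 17 were at least 2-fold higher in both at 0 mM. Of the 7 lower genes 6 were below Col-0 in both at 0 mM, where 31.8% of all were. T43-11 at 0 mM lay on the same side for 121 of the 127 and 4 of the 7, but that library resembled the 75 mM libraries. Whether the size of the difference changes with salt was not tested.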

How the data were processed

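Reads were aligned and counted with TopHat2 2.0.5 and HTSeq on TAIR10, per the submitters' processing notes. The authors deposited whole-number counts per gene and library. No source used here gives the HTSeq version or the strand setting, so overlapping and antisense genes cannot be told apart and near-identical copies are uncertain. Summary rows (2.49 to 2.60% of a table) and the added rows T31 and T43 stayed out of library sizes. Symbols and promoters came from RefSeq TAIR10.1 (97.7% of identifiers matched).

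Tests ran in R 4.3.3 with edgeR 4.0.16 (TMM, robust quasi-likelihood) on 20693 genes reaching 0.466 CPM, or 10 reads in the median library, in at least 1 of the 4 libraries, adjusted by Benjamini-Hochberg over all of them; DESeq2 1.42.0 was an alternative. CPM use gene reads alone. Each SE was derived from the edgeR test, as the absolute log2 ratio over the square root of its F statistic. With 1 Col-0 library, the SE holds no spread between Col-0 samples. The lines stand as replicates, and as nothing says that separate plants or cultures stand behind them, the p-values reflect only how far these samples spread, which may be technical; an exact permutation of 1 library against 3 cannot go under 0.25 (one-sided). The script was tested on simulated data.

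Genes named are the 12 in each direction with the widest gap between Col-0 and the nearest line on log2(CPM + 0.5) at a mean of at least 10 CPM, up to 5 near 0 in Col-0, the called members of 28 lists or else the 2 with the largest difference, and 5 salt genes. Members and lists were chosen with earlier results of these data known. Alternatives were other size factors, no filter, thinned counts, other pseudocounts and minima, each line left out and all 8 libraries.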

Additional observations from a re-analysis of the deposited data

Results flagged for a closer look

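Several genes lay on opposite sides of Col-0 at the 2 salt levels, all transgenic lines being lower at 75 mM NaCl and all higher at 0 mM; the difference was not tested, and the 0 mM library of T43-11 resembled its 75 mM one. Values are mean log2 differences of the lines from Col-0 at 75 mM, with that at 0 mM after it. TAT3 gave -1.11 and 4.37, AIG1 -1.48 and 2.39, and SARD1 -0.98 and 2.27. WRKY40 gave -0.64 and 1.38, ERF6 -0.6 and 1.37, TCH3 -0.73 and 0.73, and TCH4 -0.8 and 0.55. CYP81F2 gave -1.02 and 0.83, XTH18 -1.06 and 0.69, SAG21 -0.57 and 0.28, KMD4 -0.22 and 0.26, and UBQ10 -0.19 and 0.22. The 0 mM means include T43-11. For XTH18 the empty vector line, T31-5 and T43-11 had 12.8, 11.8 and 41.2 CPM at 0 mM, against 11.3 CPM in Col-0, so its mean rested mostly on T43-11. AIG1 had 6.37, 7.41 and 20.3 CPM, against 1.48 CPM in Col-0, so each line was well above. The added rows T31 and T43, which no source used here defines and which took no part in the comparisons, reached 27.7 and 33.6 CPM in T43-11 at 75 mM NaCl, against 0 reads in Col-0.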

How the results depend on the processing

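Counts of genes higher and lower in the transgenic lines stayed within 1.5 times of 1126 and 1176 with RLE factors, without the filter on low counts and with libraries thinned to the Col-0 depth. DESeq2 called 705 higher and 740 lower, and the fit over all 8 libraries 2 and 1; the cause was not tested. Leaving out 1 line gave 582 to 1497 higher and 467 to 1505 lower. Of 127 and 7 genes at least 2-fold apart, a minimum mean of 1 CPM gave 394 and 16, and TMM scaling gave 103 and 11. Leaving out 1 line gave 135 to 179 higher and 7 to 66 lower. List medians changed sign for the aquaporins (-0.05), reactive oxygen genes (-0.01) and indole glucosinolates (-0.01) with TMM scaling, for salicylic acid without the empty vector line (range over lines left out -0.09 to 0.04) and for the morning clock (0.05) without T43-11. Of 96 named genes that passed, 0 changed sign under any alternative, 56 passed with each line left out in turn, and 40 missed in at least 1 of those fits. DESeq2 lost 23 and the fit over all 8 libraries 93. AT5G47980 and AT5G49780, which passed in edgeR, had no adjusted value in DESeq2 and are not among the 23. No paired analysis was possible because Col-0 has 1 library at 75 mM NaCl. The depth of Col-0 limits genes under about 0.231 CPM there.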

Other observations

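Genes outside the lists, chosen here after their values were seen and with no further test, included several of the suberin and secondary wall pathways among the 127 at least 2-fold higher. CYP86A1, which hydroxylates fatty acids for root suberin, had 31.4, 32.3 and 32.8 CPM in the empty vector line, T31-5 and T43-11, against 12.4 CPM in Col-0, and FAR5, a fatty acid reductase of the same polymer, had 14.1, 13.3 and 14.6 CPM, against 5.30 CPM in Col-0. IRX3, a cellulose synthase of the secondary wall, had 15.2, 17.1 and 15.8 CPM, against 7.07 CPM in Col-0, and the laccase IRX12 had 16.6, 17.0 and 16.7 CPM, against 8.0 CPM in Col-0. In the primary wall, 15 of 16 tested alpha-expansins lay above Col-0 and 6 passed higher, where 48.5% of tested genes lay above; EXPA1 had 137, 172 and 159 CPM, against 62.3 CPM in Col-0. Of 27 tested xyloglucan endotransglucosylases 11 lay above Col-0 and 15 below, with 3 passing higher and 9 lower. Over all tested genes 48.5% lay above Col-0 and 25.5% below (37.3% and 36.2% with TMM factors). Of all tested genes 5.44% were called higher and 5.68% lower. Of 63 tested genes whose RefSeq product begins with the word peroxidase, 48 lay above Col-0 and 8 below, with 17 passing higher and 3 lower. This set was taken by name alone, and membership of the peroxidase family was not checked.

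Nitrogen carriers were also among the 127. The nitrate transporter NRT1.5 had 98.2, 85.1 and 82.0 CPM in the empty vector line, T31-5 and T43-11, against 29.3 CPM in Col-0, and the amino acid permease AAP2 had 79.9, 77.9 and 83.2 CPM, against 25.6 CPM in Col-0. The ammonium transporter AMT1;3 had 22.4, 31.1 and 25.3 CPM, against 10.4 CPM in Col-0.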
